A study of Bos taurus with 129 samples.

Results

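The 9 genes described here belong to the cytokine receptor, JAK and STAT pathway and its feedback arm: the ligand OSM, the receptors IL4R and IL6R, the transcription factor STAT3, the feedback inhibitors SOCS3, SOCS2 and CISH, and the STAT-induced genes PIM1 and BCL3. They were taken by symbol from the gene count table, in which each symbol labels 1 row of 32395, and all 9 were among the 18937 genes that passed the filter on low counts. Levels are CPM, counts scaled to a common library total, with library totals adjusted by the trimmed mean of M values (TMM). The libraries were made from jugular whole blood, drawn into RNA-preserving Tempus tubes, of 26 crossbred beef steers at arrival (day 0) and at 4 later draws (days 13, 28, 45 and 60), with 26 libraries at each day except day 13, where 25 remained because 1 library failed to cluster on the sequencer. The paper compared trace mineral programs in newly received cattle and restricted its blood expression results to steers free of bovine respiratory disease (BRD). Libraries of BRD steers are included here, and the comparison of BRD with healthy steers is not from the paper.

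All steers came from an order buyer with unknown health history, went through a long truck journey before enrollment, and were given a vaccine against respiratory viruses and the dewormer doramectin on day 0 and the vaccine again on day 21. The INR supplement supplied Cu, Co, Mn and Zn as sulfates. The AAC supplement supplied the same 4 metals, with Cu, Mn and Zn complexed to amino acids and Co as glucoheptonate. The COMBO steers ate the AAC supplement and were also drenched by mouth with trace minerals and vitamin E ahead of transport, at day 0 and whenever they were treated for illness. A steer was labelled BRD or healthy over the whole trial, and the day of diagnosis is not part of the labels used here, so a BRD library may precede or follow the illness. There were 14 BRD steers (4 AAC, 3 COMBO and 7 INR) and 12 healthy steers (4 for each supplement). Pen and label cannot be told apart in the COMBO steers, because the 4 healthy animals all enrolled in pen 5 and the 3 BRD animals all in pen 6, and 4 of the 7 INR BRD steers came from pen 7, which held no healthy animal. According to the paper, steers were rotated between pens during the trial, so a pen number here means the pen at enrollment.

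Library totals ran from 31613545 to 61692136 counts, with a median of 44268685, and no pair of libraries was close enough to be a duplicate (highest correlation of log2 CPM 0.98). The libraries of INR healthy animal 50 at day 13, which stood apart from the others in earlier results, and of INR BRD animal 40 at day 60, whose RNA integrity was described as low, were kept, and values without them are given where a call changes. T cell, B cell, monocyte and neutrophil markers were present in every library, except for the neutrophil granule genes MMP8, CATHL1, CATHL2, ELANE and AZU1, which were at 0 in at least 1 library.

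Cytokines such as oncostatin M (OSM), interleukin 6 and interleukin 4 bind paired receptor chains that carry Janus kinases (JAK). The kinases phosphorylate STAT transcription factors, which enter the nucleus and switch on target genes, among them the SOCS family, whose proteins block the receptors or kinases and close the loop. In blood, STAT3 signalling is best known in neutrophils and monocytes during the acute phase response, and the STAT5 targets CISH and SOCS2 are best known downstream of growth factors and the common gamma chain and beta chain cytokines.

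Between animals and days the 9 genes varied to very different extents. IL4R and STAT3 had the narrowest ranges, from 62.18 to 138 CPM and from 184 to 421 CPM over all libraries, and IL6R the widest, from 0.268 to 32.4 CPM, a 120.8-fold span that rested on 16 to 1361 counts. The other genes spanned 2.53-fold (PIM1) to 6.31-fold (OSM). The share of the variance of log2 CPM that lay between animals was 71.3% for SOCS2 and 52.4% for CISH, the highest of the set, so that a steer tended to keep its own level of these feedback genes from day to day. The share that lay between days was 23.3% for STAT3, 19.41% for PIM1, 18.01% for IL4R and 15.2% for SOCS3, against 1.42% for OSM and 2.16% for IL6R. Levels of different genes are not compared, since the table gives no transcript lengths.

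**Figure D1:**
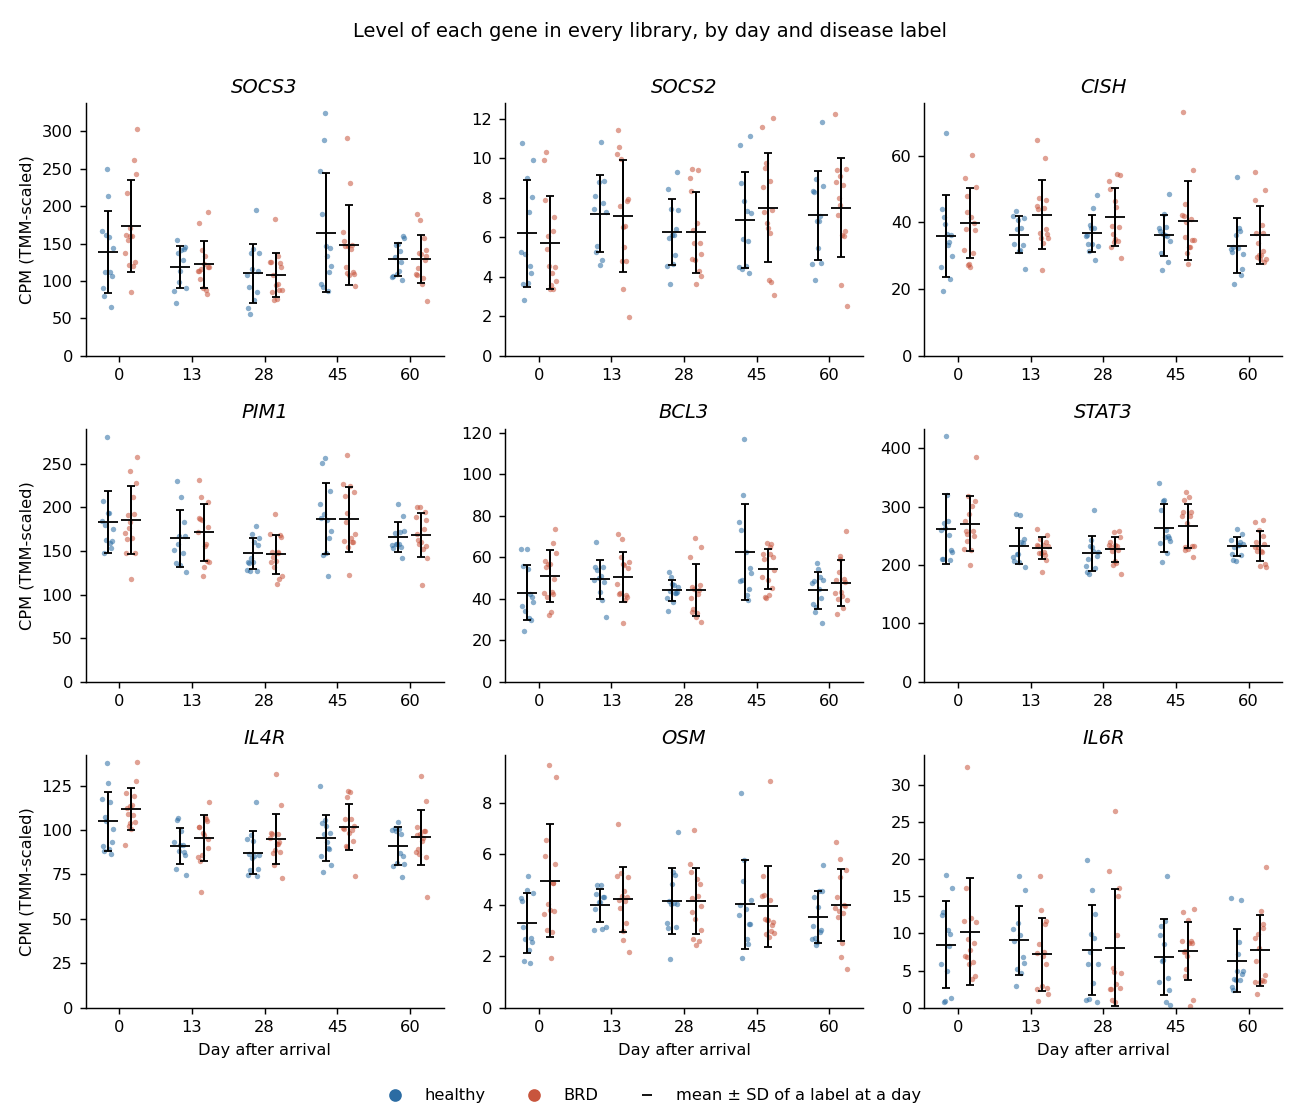
CPM of each of the 9 genes (vertical axis, 1 panel per gene) at days 0, 13, 28, 45 and 60 (horizontal axis), with 1 point per library, healthy and BRD cattle side by side, and the mean and SD of each group as marker and bar. Healthy and BRD points overlap in every panel and at every day, and the means of SOCS3, PIM1 and STAT3 are lowest at day 28.

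The changes that passed the test were between days. SOCS3, PIM1, STAT3 and IL4R fell from day 0 to day 28, and these 4 and BCL3 rose from day 28 to day 45. Changes were tested in 1 edgeR quasi-likelihood fit of all libraries with the animal as a block, and a gene was called at a false discovery rate (FDR) below 0.10 over all 18937 genes. Much of the blood transcriptome moved over the same interval, so the members' counts stand beside a high background. From day 0 to day 13, 4 of 9 members were called (1 higher, 3 lower), against 32.23% of all genes. From day 0 to day 28, 4 were called, all lower, against 35.84% of all genes, and from day 0 to day 45, 3 were called (2 higher, 1 lower), against 29.90%. From day 0 to day 60, 4 were called (1 higher, 3 lower), against 32.54%. These contrasts share the day 0 libraries and are not independent of each other.

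Between consecutive later draws the background was more uneven. From day 28 to day 45, 5 of 9 members were called, all higher, against 28.25% of all genes called in either direction and 13.65% called higher. From day 13 to day 28, PIM1 alone was called, against 1.621% of all genes, and from day 45 to day 60, BCL3 and STAT3 were called, both lower, against 7.662%. CISH, OSM and IL6R were called in none of these 7 contrasts over all cattle. The median log2 change of the 9 members was -0.24 at day 28 against day 0, where the median of all genes was 0.01.

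**Figure D2:**
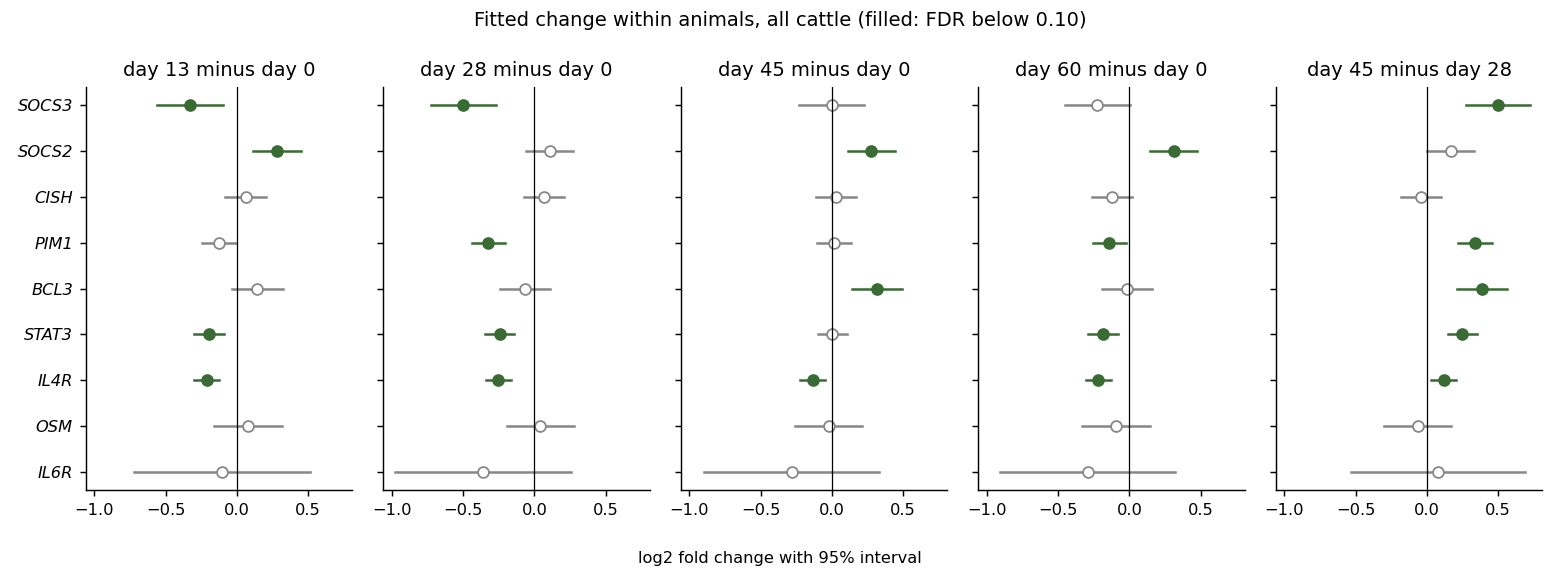
Fitted log2 change (horizontal axis) of the 9 genes (vertical axis) at days 13, 28, 45 and 60 against day 0 and at day 45 against day 28 in all cattle, with 95% intervals from the edgeR fit with animal as block. Filled points are changes with an FDR below 0.10: SOCS3, PIM1, STAT3 and IL4R lie left of 0 at day 28 and right of 0 in the contrast of day 45 with day 28, and the IL6R intervals are the widest.

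OSM is a cytokine of the interleukin 6 family made by activated neutrophils, monocytes and T cells. Its level at day 0 was 1.73 CPM at the lowest, 3.94 at the median and 9.46 at the highest, and at day 60 the same 3 values were 1.501, 3.85 and 6.47 CPM (n = 26 at each day). The ranges at the 5 days overlapped almost whole, and neighbouring day means, from 3.79 ± 1.23 (SD) at day 60 up to 4.197 ± 1.96 at day 0, lay at most 0.14 pooled SD apart. The fitted change from day 0 lay between -0.09 (95% interval -0.33 to 0.14) at day 60 and 0.08 (-0.16 to 0.32) at day 13 on the log2 scale. Only 66 to 398 counts per library supported this gene.

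IL4R encodes the chain that binds interleukin 4 and, with partner chains, interleukin 13. It was 86.6, 107.9 and 138 CPM at day 0 (lowest, median and highest of 26), 65.03, 93.2 and 115.99 CPM at day 13 (n = 25), and 72.8, 90.7 and 132 CPM at day 28 (n = 26). The day 13 and day 28 values overlapped those of day 0 but sat lower within the range in nearly every steer, with IL4R lower than at day 0 in 22 of 25 animals at day 13, 23 of 26 at day 28 and 24 of 26 at day 60. IL4R was the only member called against day 0 at every later draw. It fell by 13.7% at day 13, by 16.2% at day 28 (log2 -0.25, SE 0.04, edgeR FDR = 3.33e-06), by 8.96% at day 45 and by 14.03% at day 60 (FDR = 7.95e-05). It rose by 8.58% from day 28 to day 45 (higher in 21 of 26 animals, FDR = 0.0436), a call that was lost without the animal block (FDR = 0.174).

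IL6R encodes the binding chain of the interleukin 6 receptor, which signals through IL6ST to STAT3. Its lowest, median and highest levels were 0.704, 8.45 and 32.4 CPM at day 0, 0.745, 5.58 and 26.5 CPM at day 28, and 0.268, 7.59 and 17.7 CPM at day 45. The spread within each day was wider than any difference between days, and the steers did not move together: the ratio of day 45 to day 28 in 1 animal ran from 0.0275 to 9.39. The fitted change at day 28 was -0.36 with a 95% interval from -0.98 to 0.25, so a fall of nearly 2-fold or a small rise both lay inside it. No trend of IL6R over the trial was detectable at this spread.

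STAT3 itself, the main transcription factor downstream of interleukin 6 and OSM and a target of its own protein, was 200 CPM at the lowest, 258 at the median and 421 at the highest at day 0. At day 28 the same values were 184, 225 and 295 CPM, and at day 45 they were 206, 255 and 341 CPM. The ranges overlapped, with both ends lower at day 28 than at day 0, and the day 45 median was back near that of day 0. The fitted log2 change was -0.20 at day 13 (SE 0.05, edgeR FDR = 0.00283), -0.24 at day 28 (SE 0.05, FDR = 0.000113), 0.00 at day 45 (95% interval -0.10 to 0.11) and -0.19 at day 60 (SE 0.05, FDR = 0.00403). STAT3 was lower than at day 0 in 21 of 26 animals at day 28. From day 28 to day 45 it rose by 18.7% (higher in 23 of 26 animals, FDR = 0.00018), and from day 45 to day 60 it fell by 12.30% (lower in 21 of 26, FDR = 0.0188). The step between the day 60 and day 45 means, 1.05 pooled SD, was the only one between neighbouring day means of any member to exceed 1 SD.

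SOCS3, the inhibitor that STAT3 induces and that binds the IL6ST chain, had the largest swings of the called genes. At day 0 it was 65.1 CPM at the lowest, 157 at the median and 304 at the highest. At day 28 these values were 56.3, 108.01 and 195 CPM, and at day 45 they were 85.97, 144 and 324 CPM (n = 26 each). The ranges overlapped, while the upper end at day 28 was well under that of the other 2 draws. The log2 change was -0.33 at day 13 (SE 0.12, edgeR FDR = 0.0283), -0.50 at day 28 (SE 0.11, FDR = 0.000374), 0.00 at day 45 (95% interval -0.23 to 0.23) and -0.22 at day 60 (-0.45 to 0.00, FDR = 0.141). SOCS3 fell by 29.3% at day 28, with 21 of 26 animals lower, and rose by 41.2% from day 28 to day 45, with 22 of 26 animals higher (FDR = 0.000673). In order of mean level the days ran 28, 13, 60, 45 and 0, from 109.2 ± 33.6 to 157 ± 60.1 CPM (SD), and no neighbours in this order differed by more than 0.529 pooled SD.

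SOCS2, which restrains growth hormone and STAT5 signalling, was the only feedback gene called higher than at day 0. It was 2.84, 5.19 and 10.8 CPM at day 0 (lowest, median and highest), 1.97, 7.43 and 11.4 CPM at day 13, and 2.52, 7.38 and 12.255 CPM at day 60. The ranges were nearly the same and the shift was in the medians. The log2 change was 0.28 at day 13 (SE 0.08, edgeR FDR = 0.00943), 0.28 at day 45 (SE 0.08, FDR = 0.00959) and 0.31 at day 60 (SE 0.08, FDR = 0.00289), with SOCS2 higher than at day 0 in 20 of 25, 19 of 26 and 17 of 26 animals. At day 28 it was 0.11 (95% interval -0.06 to 0.27). These calls depended on comparing each steer with itself: without the animal block the FDR was 0.255 at day 13, 0.256 at day 45 and 0.187 at day 60.

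CISH, a STAT5-induced inhibitor of interleukin 2 and interleukin 3 family receptors, did not pass the test in any contrast. Its lowest, median and highest levels were 19.3, 37.1 and 66.9 CPM at day 0, 28.8, 37.4 and 54.59 CPM at day 28, and 21.47, 32.15 and 55.2 CPM at day 60. The largest fitted change from day 0 was -0.12 at day 60 (95% interval -0.26 to 0.02, edgeR FDR = 0.196). The intervals at days 13, 28 and 45 lay between -0.11 and 0.21, so changes of more than 1.16-fold upward were outside them.

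PIM1, a serine/threonine kinase that promotes survival of blood cells and is induced by STAT3 and STAT5, was lower at day 28 than at day 0 in more animals than any other member. It was 118.2, 178 and 281 CPM at day 0, 111.8, 142 and 193 CPM at day 28, and 121.8, 184 and 260 CPM at day 45 (lowest, median and highest). The ranges shared their lower end and differed in their upper part. PIM1 was lower at day 28 than at day 0 in 24 of 26 animals and higher at day 45 than at day 28 in 24 of 26. The fall to day 28 was 20.1% (log2 -0.32, SE 0.06, edgeR FDR = 7.06e-06), and the rise to day 45 was 26.4% (log2 0.34, SE 0.06, FDR = 7.6e-06). Both contrasts use the day 28 libraries. The level at day 45 differed from that at day 0 by a log2 change of 0.01 (95% interval -0.10 to 0.13). The smaller changes from day 13 to day 28 (-0.20, FDR = 0.0918) and from day 0 to day 60 (-0.14, FDR = 0.0676) were close to the threshold, and the first was lost when any 1 of 12 animals was left out, the second with any 1 of 4 animals (6, 42, 43 or 46) and without the animal block (FDR = 0.18).

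BCL3, an atypical member of the inhibitor of NF-kappa-B family that acts in the nucleus and is a STAT3 target, peaked at day 45. It was 24.6, 43.01 and 73.47 CPM at day 0, 28.63, 43.6 and 69.1 CPM at day 28, 39.4, 54.4 and 117.1 CPM at day 45, and 28.3, 46.3 and 72.9 CPM at day 60. The lowest library of day 45 was well above the lowest of the other days, while the ranges overlapped. BCL3 rose by 24.6% from day 0 to day 45 (edgeR FDR = 0.00468), rose by 30.5% from day 28 to day 45 (higher in 20 of 26 animals, FDR = 0.000736), and fell by 20.8% from day 45 to day 60 (lower in 19 of 26, FDR = 0.0156). Unlike SOCS3, PIM1 and STAT3, it was not called lower at day 28 (log2 -0.07, 95% interval -0.24 to 0.11).

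**Figure D3:**
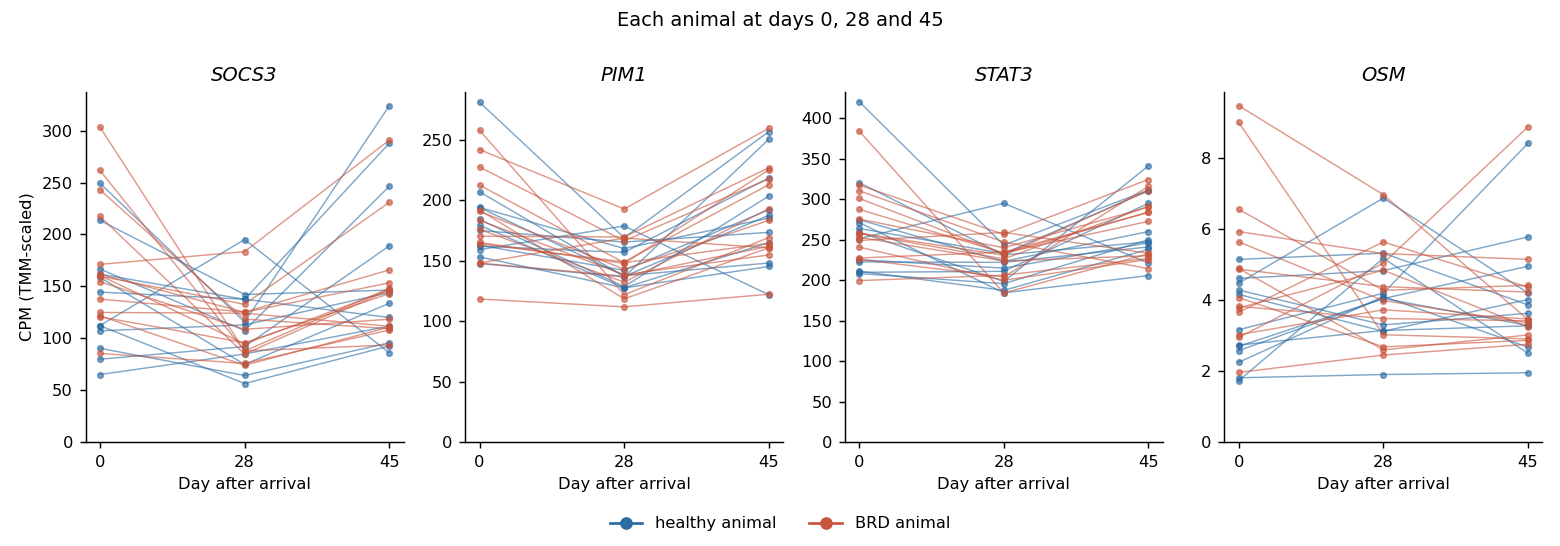
CPM (vertical axis) of SOCS3, PIM1, STAT3 and OSM in each of the 26 steers at days 0, 28 and 45 (horizontal axis), with 1 line per animal coloured by disease label. For PIM1, 24 of 26 lines go down to day 28 and 24 of 26 go up to day 45, while the OSM lines have no common direction.

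Pairs of members varied together to different degrees from library to library. Over all libraries, which share animals and days, Pearson's r of log2 CPM was 0.80 for SOCS3 with STAT3, 0.72 for PIM1 with STAT3 and 0.69 for SOCS3 with PIM1, and 0.81, 0.78 and 0.73 after the mean of each animal was removed. IL4R, which was also lower at day 28, had values of 0.60 with STAT3, 0.59 with SOCS3 and 0.38 with PIM1, and OSM, which was called at no day, had 0.46, 0.58 and 0.54 with the same genes. SOCS3 and SOCS2, both feedback inhibitors, had an r of 0.10, and IL6R had values from -0.10 to 0.11 with every other member. Among 13694 genes with a mean of at least 1 CPM, the genes most like SOCS3 were SBNO2 (r 0.84), ZFP36 (0.84) and MYD88 (0.82), and those most like STAT3 were TARS (0.86), UBAP1 (0.85) and TLR4 (0.83). PIM1 was most like HLX (0.84), TARS (0.80) and ARID5A (0.76), and IL4R most like MAPKAPK2 (0.77), MAP1LC3B (0.73) and TSPO (0.73). The closest genes were TPM1 (0.81), DACH1 (0.78) and LOC100297044 (0.74) for SOCS2, RASGEF1B (0.58), ADHFE1 (0.57) and RNF157 (0.56) for CISH, and JUNB (0.56), SOCS3 (0.54) and ARID5A (0.53) for BCL3. OSM came nearest to LOC112444461 (0.65), LOC100336476 (0.63) and ARID5A (0.61), and for IL6R no gene exceeded 0.36 (LOC616903, LOC787309 and ZNF677). These values are descriptions over libraries that are not independent.

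The next comparison asked whether BRD and healthy steers differed at each draw, and no member passed the test. edgeR called 0 of 9 members and 0% of all genes at each of the 5 days, with the supplement as a term. At an unadjusted p under 0.05 there were 1024, 736, 1606, 650 and 480 genes at days 0, 13, 28, 45 and 60, among which OSM at day 0 was the only member. DESeq2 called 3, 4, 29, 8 and 2 genes and limma voom 0, 0, 8, 0 and 0, with no member in either. With the pen in place of the supplement as a term, edgeR called 0, 7, 21, 1 and 0 genes, again without a member. Leaving out animal 43 gave 12 called genes at day 28. Averaged over its draws, each steer's SOCS3 level was 136 ± 24.2 CPM (SD) in 14 BRD and 132 ± 27.2 CPM in 12 healthy animals, and PIM1 was 172 ± 22.45 and 170 ± 17.5 CPM.

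OSM at day 0 was 1.96 CPM at the lowest, 4.47 at the median and 9.46 at the highest in the 14 BRD steers, and 1.73, 2.95 and 5.14 CPM in the 12 healthy steers. The groups overlapped over most of the healthy range, and the highest values were all of BRD steers. The means were 4.97 ± 2.19 and 3.30 ± 1.18 CPM (SD), a log2 difference of 0.63 (SE 0.23, 95% interval 0.16 to 1.11), which did not pass the correction over all genes (edgeR FDR = 0.883). At days 13, 28, 45 and 60 the difference was 0.10, 0.02, -0.01 and 0.18. The neutrophil marker sum at day 0 was 1705 to 10772 CPM (median 2905) in BRD and 1620 to 5178 CPM (median 2486) in healthy steers, and its part in the OSM difference was not tested.

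SOCS3 at day 0 leaned the same way, at 85.4, 160 and 304 CPM in BRD and 65.1, 128.4 and 249 CPM in healthy steers (lowest, median and highest), with overlapping groups and a log2 difference of 0.41 (95% interval -0.02 to 0.84, edgeR FDR = 0.912). At the 4 later days its difference lay between -0.02 (day 45, 95% interval -0.43 to 0.39) and 0.04 (day 13, -0.26 to 0.34). CISH had a log2 difference of 0.17 to 0.18 at every day, with intervals that each included 0 (edgeR p from 0.105 to 0.305), and IL4R one of 0.05 to 0.13. STAT3 had the narrowest interval of the members at days 13, 28 and 60 and IL4R at days 0 and 45. For STAT3 the 95% intervals ran from -0.12 to 0.13 at day 60 and from -0.08 to 0.19 at day 28. The interval of IL6R at day 28 ran from -1.39 to 1.06, so a 2-fold difference in either direction lay inside it.

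**Figure D4:**
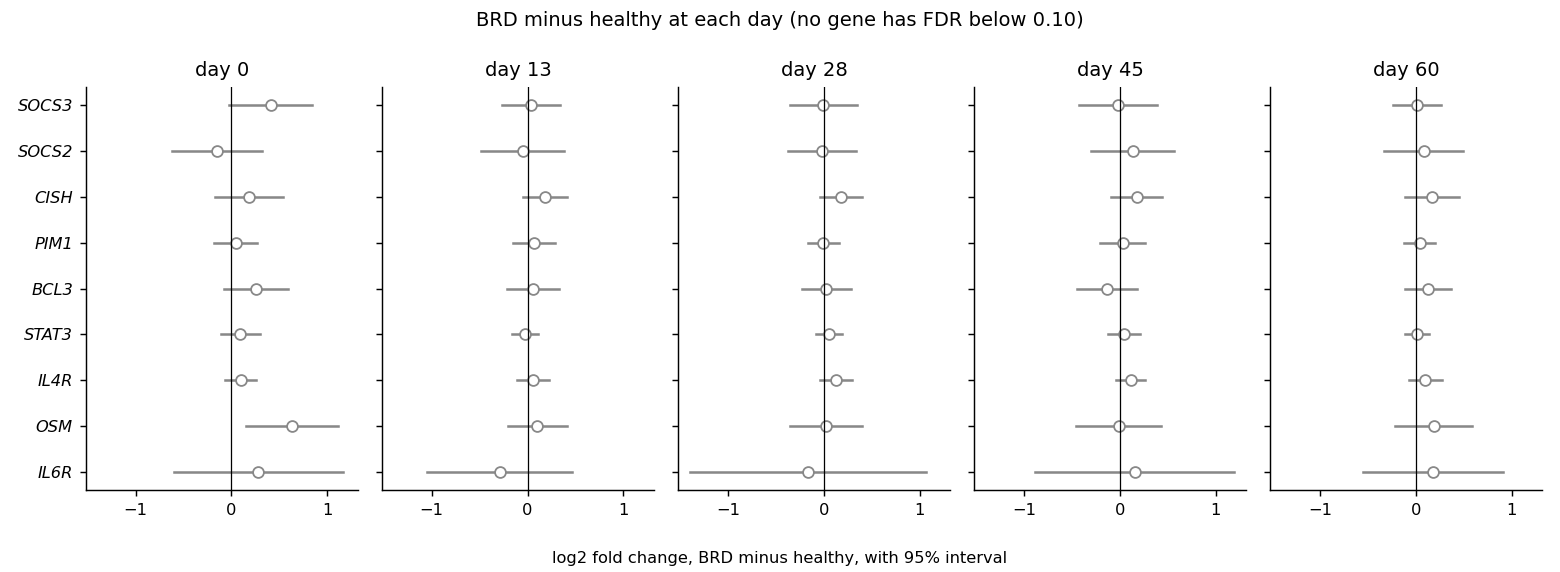
Fitted log2 difference, BRD minus healthy (horizontal axis), of the 9 genes (vertical axis) at each of the 5 days, 1 panel per day, with 95% intervals from edgeR. No gene has an FDR below 0.10, and only the interval of OSM at day 0, from 0.16 to 1.11, excludes 0.

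Changes from day 0 were also tested within each label. In healthy steers 1, 3, 1 and 1 members were called at days 13, 28, 45 and 60 against day 0, beside 10.95%, 20.98%, 8.555% and 11.64% of all genes, and in BRD steers 3, 4, 2 and 4 members, beside 17.43%, 20.05%, 22.51% and 19.62%. At day 28, IL4R, PIM1 and STAT3 were called lower in both labels, by log2 -0.26, -0.31 and -0.24 in healthy and -0.25, -0.34 and -0.25 in BRD steers. SOCS3 fell by 0.69 on the log2 scale in BRD steers (edgeR FDR = 0.0007) and had a change of -0.31 in healthy steers that was not called (FDR = 0.221). The fall in healthy steers was called when animal 7 was left out (edgeR FDR = 0.0766). BCL3 rose by 0.53 at day 45 in healthy steers (FDR = 0.00461, higher in 11 of 12 animals) and had a change of 0.11 in BRD steers (FDR = 0.609).

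The difference between the labels in these changes was tested directly, and edgeR called 0 of 9 members and 0% of all genes at each of the 4 days, with 619, 863, 801 and 596 genes at an unadjusted p under 0.05. DESeq2 called 13, 5, 22 and 9 genes and limma voom 0, with no member in either. The difference of the SOCS3 changes was -0.39 at day 28 (95% interval -0.84 to 0.07) and -0.49 at day 45 (-0.94 to -0.04), and that of the BCL3 changes at day 45 was -0.42 (-0.77 to -0.07, edgeR FDR = 1 for both at day 45). The OSM change was lower in BRD than in healthy steers by -0.61, -0.61, -0.59 and -0.44 at days 13, 28, 45 and 60, with 95% intervals that excluded 0 at the first 3 of these days. All 4 of these contrasts contain the day 0 libraries, in which OSM was higher in BRD steers, and the lowest FDR of any member in them was 0.951. More OSM than at day 0 was measured in 6 of 11, 10 of 12, 8 of 12 and 7 of 12 healthy steers at days 13, 28, 45 and 60, and in 7, 5, 4 and 6 of 14 BRD steers.

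The supplements were compared at each day with the disease label as a term, and 0 of 9 members were called in the 3-supplement test at any day. Supplements were assigned to whole pens at enrollment: AAC to pens 2 and 8, COMBO to pens 5 and 6, and INR to pens 3, 4 and 7. The fit had no term for pen and took steers of a pen as independent, so differences between supplements and between pens were not separated. edgeR called 3, 0, 0, 1 and 2 genes (0.01584%, 0%, 0%, 0.005281% and 0.01056%) at days 0, 13, 28, 45 and 60, and 948, 1482, 1286, 890 and 841 genes had an unadjusted p under 0.05. DESeq2 called 7, 78, 1 and 15 genes at days 0, 28, 45 and 60 and its highest number at day 13, limma voom called 10, 42, 11, 2 and 10, and again none was a member. These counts of all genes depended on the samples fitted: among BRD cattle alone, where the COMBO group is 3 steers of pen 6, edgeR called 204 genes in the 3-supplement test at day 0, and 1100 and 511 genes for AAC minus COMBO at days 0 and 13, against 1 and 0 in the fit of both labels. Among healthy cattle alone all 3 of these counts were 0, and with all libraries in 1 fit AAC minus COMBO had 176 calls at day 13. At day 28, healthy cattle alone had 23 calls for AAC minus INR and 2 in the 3-supplement test, against 0 and 0 with both labels. No member was called in any of these fits, and the lowest member FDR among BRD cattle alone was 0.136 (CISH, AAC minus COMBO at day 13, log2 0.62). The member with the lowest p was SOCS3 at day 45. Its lowest, median and highest levels there were 92.6, 150 and 246 CPM in 8 AAC steers, 110.8, 147 and 324 CPM in 7 COMBO steers and 85.97, 111.7 and 231 CPM in 11 INR steers. The groups overlapped, and COMBO exceeded INR by 0.68 on the log2 scale (95% interval 0.19 to 1.18, edgeR FDR = 0.996 over all genes).

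Other supplement differences of members were smaller or as uncertain. STAT3 at day 0 was 240.9, 288 and 421 CPM in COMBO, 209.8, 256 and 276 CPM in AAC and 199.6, 249 and 385 CPM in INR steers, with AAC below COMBO by a log2 difference of -0.32 (edgeR FDR = 0.653) and COMBO above INR by 0.26 (FDR = 0.991). CISH at day 13 was 33.6, 43.97 and 64.6 CPM in AAC and 25.7, 35.3 and 40.8 CPM in COMBO steers, a log2 difference of 0.38 (FDR = 0.371). SOCS2 at day 13 was higher in AAC than in INR steers by 0.52 (FDR = 0.644), a difference that was -0.053 among healthy steers alone. Averaged over its draws, a steer's SOCS3 level was 126.2 ± 22.2 CPM (SD) on AAC, 152 ± 31.7 on COMBO and 129.6 ± 18.8 on INR, and its STAT3 level 241 ± 17.3, 255 ± 22.1 and 239 ± 13.4 CPM.

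Other genes of the pathway were followed through 5 lists. At days 13, 28, 45 and 60 against day 0, 6104, 6787, 5662 and 6163 of all 18937 genes were called in either direction. The counts of each list stand beside this background and were not tested against it. Of 21 ligands, 11 passed the filter, and IL6, IL4 and CSF3 were among those that did not. At days 13, 28, 45 and 60 against day 0 the ligands counted 2, 0, 2 and 3 higher and 1, 3, 2 and 4 lower. IL12B, the shared subunit of interleukins 12 and 23, fell by 1.03, 0.98, 1.26 and 1.16 on the log2 scale at these days (edgeR FDR at most 1.97e-06), and IL15, a cytokine that maintains NK and memory T cells, rose by 0.46 at day 45 and by 0.34 at day 60.

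Of 29 receptors, 26 passed the filter, with 3 higher at each of the 4 days and 5, 7, 5 and 5 lower. The background at these days was 6104, 6787, 5662 and 6163 of all 18937 genes called in either direction. PRLR, the prolactin receptor, which signals through STAT5, rose by 0.38, 0.57, 0.57 and 0.49. IL13RA1, the chain that pairs with IL4R, fell by 0.39 at day 13, IL7R, the interleukin 7 receptor of T cells, fell by 0.67 at day 28, and IL2RA, the high-affinity interleukin 2 receptor chain, fell by 0.71 and 0.76 at days 45 and 60. Of the 10 JAK kinases and other STATs, 1, 1, 2 and 0 were higher and 1, 2, 0 and 1 lower. STAT2, a transducer of type I interferon signals, fell by 0.40 and 0.45 at days 28 and 60.

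Among 16 other SOCS, PIAS and phosphatase genes, 1, 3, 9 and 6 were higher and 5, 5, 1 and 4 lower at days 13, 28, 45 and 60. The background at these days was 6104, 6787, 5662 and 6163 of all 18937 genes called in either direction. SOCS1, the inhibitor of interferon gamma signalling and a relative of SOCS3, fell by 1.16, 0.74 and 0.93 at days 28, 45 and 60 (edgeR FDR = 1.92e-08, 0.000321 and 5.23e-06). PTPN6, a phosphatase that dephosphorylates JAK kinases, rose by 0.21 and 0.18 at days 45 and 60. From day 28 to day 45, 10 of the 16 rose and 1 fell, with a median log2 change of 0.11, beside 13.65% of all genes called higher and 14.60% called lower. In that contrast 4 of the 10 JAK kinases and other STATs rose, JAK2 by 0.24 (FDR = 0.00383).

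Of 20 other STAT-induced genes, all passed the filter, with 1, 2, 2 and 1 higher and 8, 8, 6 and 7 lower at days 13, 28, 45 and 60. The background at these days was 6104, 6787, 5662 and 6163 of all 18937 genes called in either direction. CCND3, a D-type cyclin of lymphocytes, fell by 0.36, 0.35, 0.27 and 0.31 on the log2 scale (edgeR FDR at most 6.56e-08). BATF, a transcription factor of activated lymphocytes, rose by 0.37 and 0.27 at days 45 and 60. MCL1, which protects neutrophils and lymphocytes from apoptosis, rose by 0.23 from day 28 to day 45 (FDR = 5.13e-05), and JUNB fell by 0.20 from day 45 to day 60.

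Markers of blood cell types moved over the same days, and in bulk blood fewer cells of a type and less RNA per cell cannot be told apart. Of all 18937 genes, 6787 were called in either direction from day 0 to day 28 and 5349 from day 28 to day 45. The marker counts stand beside this background and were not tested against it. Of 13 neutrophil markers tested, 5 were lower and 0 higher at day 28 than at day 0, and the sum of the list ran from 1620 to 10772 CPM (median 2671) at day 0 and from 1045 to 2940 CPM (median 1880) at day 28. Of 8 monocyte markers, 5 were lower and 1 higher at day 28, with sums of 680 to 3112 CPM (median 1362) at day 0 and 683 to 1865 CPM (median 905) at day 28. From day 28 to day 45, when SOCS3, PIM1, STAT3, BCL3 and IL4R rose, 5 of 13 neutrophil markers were higher and none lower, with a summed median of 1966 CPM at day 45. No monocyte marker was called, while the monocyte sums at day 45 were 587 to 1683 CPM (median 1083), against a median of 905 CPM at day 28. The part of the neutrophil and monocyte lists in the members' dip was not tested.

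Among the lymphocyte lists, 1 of 11 T cell markers and 4 of 8 B cell markers were higher at day 28 than at day 0 and none lower, and 5 of 7 NK and cytotoxic markers were lower and 1 higher. The summed medians at days 0 and 28 were 1464 and 1506 CPM for T cells, 2099 and 2337 CPM for B cells and 327 and 281 CPM for NK and cytotoxic cells. Of 9 eosinophil and basophil markers, 6, 4, 6 and 6 were higher at days 13, 28, 45 and 60. Platelet markers were higher in 7, 6, 3 and 6 of 8. Of 9 erythroid transcripts, 9, 7, 8 and 7 were higher, with a summed median of 238 CPM at day 0 and 6121, 2430, 4577 and 1943 CPM at the later days. Of all 18937 genes, 6104, 6787, 5662 and 6163 were called in either direction at days 13, 28, 45 and 60 against day 0. The highest erythroid sum, 84866 CPM in 1 library at day 13, takes a share of its library that other genes then lack, and TMM scaling was applied before all tests.

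**Figure D5:**
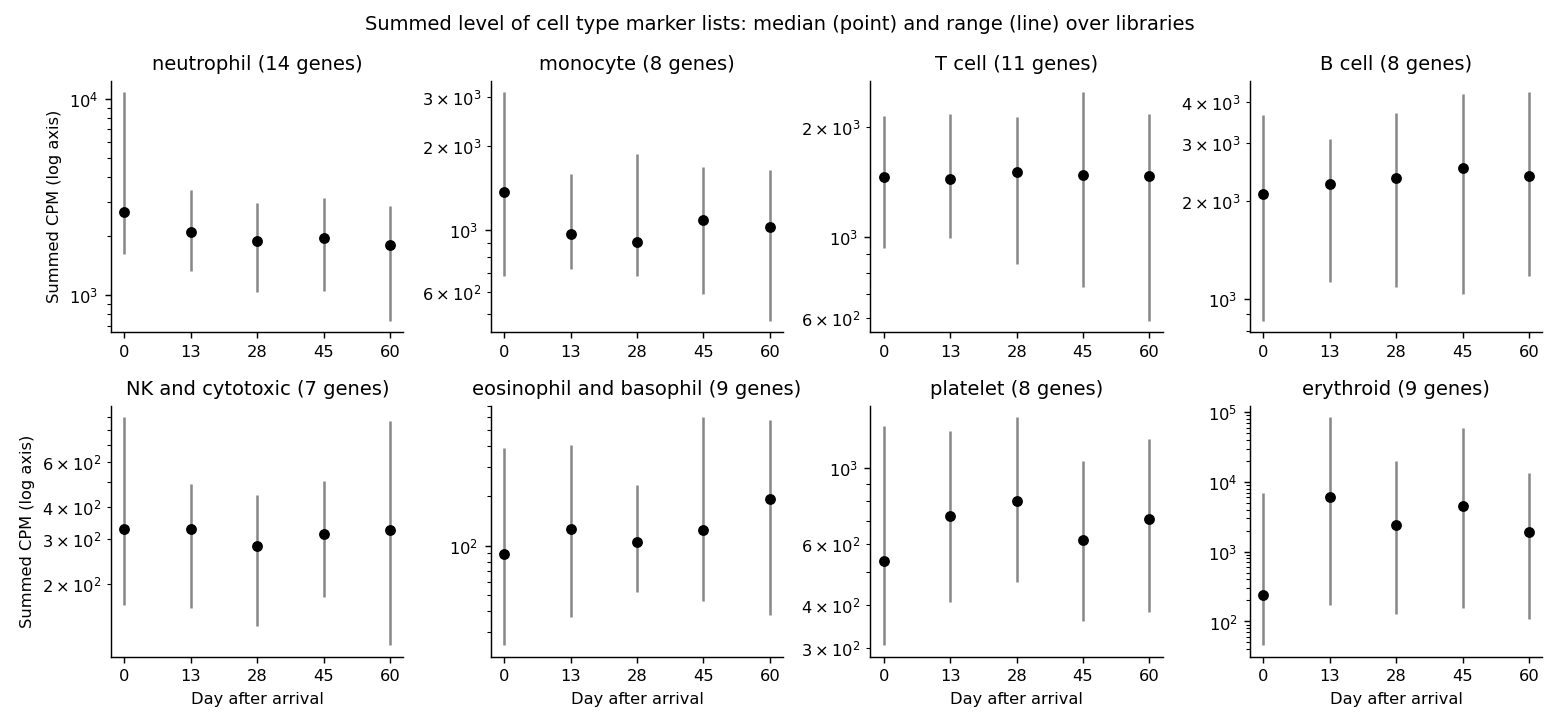
Summed CPM of 8 blood cell marker lists (vertical axis, log scale) at days 0, 13, 28, 45 and 60 (horizontal axis), with the median as point and the lowest and highest library as bar. The neutrophil and monocyte medians are lower at day 28 (1880 and 905 CPM) than at day 0 (2671 and 1362 CPM), and the erythroid median rises from 238 CPM at day 0 to 6121 CPM at day 13.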

How the data were processed

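Gene-level counts were deposited by the authors as 1 table of 32395 genes and 129 libraries. Per the labels and methods, stranded mRNA libraries were sequenced on an Illumina instrument, checked with FastQC 0.11.9, trimmed with Trimmomatic 0.39, mapped by HISAT2 (2.1.1 in the submitters' processing notes) against ARS-UCD1.3 and assembled by StringTie 2.2.0. The counts derive from transcript coverage, not directly from counted reads, and reads of overlapping genes may be shared.

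The table was analysed in R 4.3.3 with edgeR 4.0.16: filterByExpr over 30 combinations of supplement, label and day kept 18937 genes, TMM factors were set over all libraries, and quasi-likelihood F-tests with a common dispersion were called at a Benjamini-Hochberg FDR below 0.10 over all genes. BRD and supplements were compared at each day alone in an additive model. Changes between days used all libraries with the animal as block. The pairing comes from the labels, which name the animal, and 251 of 256 pairs of libraries of 1 animal had correlated deviations above 0.1 (median 0.41, against -0.02 between animals). Intervals are 95%. DESeq2 1.42.0 and limma 3.58.1 were alternatives, with another filter, scaling, dispersion, covariate or threshold, no block, and each animal left out. The fit was also run on simulated counts with no animal effect, at a dispersion of 0.08. The common dispersion of the real day 0 fit was 0.165, so the simulation did not test the setting of these data. Named pathway genes have the lowest p in each direction among those called in a list and comparison, and genes alike have the highest Pearson r. The members and lists were chosen with earlier results of these data known.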

Additional observations from a re-analysis of the deposited data

Results flagged for a closer look

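Within each combination of supplement, label and day with 4 to 7 steers, the highest or lowest library was compared with the rest by its gap relative to the range. Of 216 combinations of gene and group, 14 held a library far from the others, where chance at 1 in 20 gives 10.8. In AAC BRD steers, animal 21 was highest in SOCS3 at day 13 (177 CPM, the other 3 at 102.1 to 113.6) and at day 60 (189 CPM, the others at 107.8 to 116.7) and in CISH at day 13 (64.6 CPM, the others at 43.97 to 47.4). In INR BRD steers at day 45, animal 23 was highest in both SOCS3 (231 CPM, the other 6 at 93.5 to 148) and OSM (8.87 CPM, the others at 2.75 to 4.22). Without this animal the OSM change from day 0 to day 45 in BRD steers was called (log2 -0.49, edgeR FDR = 0.0203, against -0.32 and 0.174 with it). With each animal left out in turn, this OSM change ran from -0.49 to -0.17, with an FDR of up to 0.518. Only the fit without animal 23 called it. BCL3 in animal 40 at day 60, a library from RNA described as of low integrity, was 72.9 CPM (the others at 35.6 to 49.3).

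INR healthy animal 50 was lowest in STAT3 at day 13 (197 CPM, the others at 238 to 245) and highest in BCL3 at day 28 (45.9 CPM, the others at 42.6 to 43.2). COMBO healthy animal 57 was highest in STAT3 at day 13 (286 CPM, the others at 205 to 219). Among AAC healthy steers at day 60, animal 49 was lowest in CISH (21.47 CPM, the others at 31.2 to 32.5) and animal 46 lowest in IL4R (79.6 CPM, the others at 99.3 to 101.1). IL6R supplied 3 more single high libraries: animal 9 of AAC BRD at day 28 (18.3 CPM, the others at 1.04 to 2.54), animal 34 of AAC healthy at day 60 (14.8 CPM, the others at 2.32 to 3.85) and animal 10 of INR healthy at day 60 (14.5 CPM, the others at 3.69 to 4.903).

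In 3 cases every steer of 1 group moved one way and every steer of another group the other way, and these differences were not tested. The ratio of day 60 to day 0 for SOCS3 was below 1 in all 4 COMBO healthy steers (0.531 to 0.879) and above 1 in all 4 INR healthy steers (1.09 to 1.55). The ratio of day 28 to day 0 for OSM was below 1 in all 3 COMBO BRD steers (0.659 to 0.911) and above 1 in all 4 COMBO healthy steers (1.03 to 1.83). The ratio of day 45 to day 28 for IL6R was below 1 in all 4 COMBO healthy steers (0.252 to 0.867) and above 1 in all 3 COMBO BRD steers (1.07 to 9.39). All 3 cases also separate enrollment pens: pen 5 from pens 3 and 4 for SOCS3, and pen 5 from pen 6 for OSM and IL6R.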

How the results depend on the processing

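No member passed the test for BRD against healthy, for the supplements or for the difference between labels in the change from day 0 under any alternative run, with any animal left out included. Of the counts of called members recomputed under other settings, 407 stayed within 1.5 times the reported count and 15 did not. The 407 include every comparison just named, where the count was 0 in all settings. All 15 that moved were counts for changes between days in which at least 1 member was called. Without the replicate block the count fell from 1 to 0 at day 13 and day 60 in healthy steers, from 2 to 0 at day 45 and from 4 to 2 at day 60 in BRD steers, from 4 to 2 at day 60 in all cattle and from 1 to 0 from day 13 to day 28. SOCS2 (days 13, 45 and 60) and IL4R (day 45 against day 28) lost their calls over all cattle there, as did SOCS3 at day 60 in BRD steers (FDR = 0.137). Calls of all genes in all cattle fell there from 6104 to 3739 at day 13, 6787 to 4259 at day 28, 5662 to 3167 at day 45 and 6163 to 3596 at day 60, from 5349 to 2681 between days 28 and 45, from 307 to 88 between days 13 and 28 and from 1451 to 305 between days 45 and 60. The 3-supplement test called 20, 58, 8, 7 and 4 genes at the 5 days with all libraries in 1 fit and 204, 4, 1, 0 and 1 in BRD cattle alone, against 3, 0, 0, 1 and 2. In healthy cattle alone it called 0, 0, 2, 0 and 0. At an FDR below 0.05 the count was 0 at day 13 in healthy steers, 1 at day 45 in BRD steers and 0 from day 13 to day 28. With limma voom or no filter on low counts it was 1 at day 45 in BRD steers and 0 from day 13 to day 28, and with a trended dispersion 0 from day 13 to day 28. Without the day 13 library of animal 50 it was 0 at day 13 in healthy steers (IL4R). The SOCS2 difference between AAC and INR at day 13 was -0.053 in healthy cattle alone.

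With each animal left out, the counts ran from 4 to 5 at day 13, 4 to 4 at day 28, 3 to 3 at day 45 and 3 to 6 at day 60 in all cattle. They ran from 0 to 1, 2 to 4, 1 to 1 and 1 to 1 at these days in healthy steers and from 3 to 4, 4 to 4, 1 to 3 and 2 to 5 in BRD steers. From day 13 to day 28 they ran from 0 to 1, from day 28 to day 45 from 5 to 6 and from day 45 to day 60 from 2 to 3. IL4R at day 45 in BRD steers lost its call without any 1 of 11 animals, IL4R at day 13 in healthy steers without any 1 of 6, SOCS3 at day 60 in BRD steers without animal 29, 31 or 43, STAT3 at day 28 in healthy steers without animal 6, and STAT3 at day 60 in BRD steers without animal 43. PIM1 at day 13 in all cattle gained a call without any 1 of 9 animals and with limma voom. At day 60 in all cattle SOCS3 was called without animal 27 or 48 and CISH without animal 48. SOCS3 at day 28 in healthy steers gained a call without animal 7. The common dispersion was held at its all-animal value in these fits. OSM (66 to 398 counts), SOCS2 (83 to 648) and IL6R (16 to 1361) had the least depth.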
